A study of Mus musculus with 23 samples.

Results

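Among the p65 binding sites found in resting wild type macrophages, 327 had no counterpart in the peak list of resting NCoR knockout macrophages and lay at places that p65 occupied after a bacterial stimulus. They were chosen from ChIP-seq peak lists as untreated wild type peaks that overlapped no untreated knockout peak by 1 bp or more and overlapped a peak of at least 1 of the lists made after the stimulus. They are 327 of 702 untreated wild type peaks and of 58278 peaks in all 5 lists of the study. The presence or absence of a peak in 4 lists chose these sites, so their untreated difference between the genotypes is a description with no test.

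p65 (RelA) is the transactivating subunit of the NF-κB dimer that inhibitor proteins hold in the cytoplasm of resting cells. Engagement of the endotoxin receptor TLR4 leads to degradation of the inhibitors, and p65 then enters the nucleus and binds promoters and enhancers of inflammatory genes. A small amount of p65 can be found on chromatin in resting macrophages. NCoR is a corepressor that carries histone deacetylase activity to nuclear receptors such as the LXRs and to other DNA-binding factors, and keeps many inflammatory genes low before a stimulus.

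Macrophages were elicited into the mouse peritoneum with thioglycollate, taken from male C57BL/6 mice of 6 to 8 weeks, and kept overnight in 0.5% serum. Wild type cells (NCoR fl/fl Lys M-Cre -/-) carried floxed NCoR alleles without the Cre transgene, and knockout cells (NCoR fl/fl Lys M-Cre +/-) carried the same floxed alleles with it. Lys M-Cre acts in myeloid cells, so other peritoneal cells of these mice would keep NCoR, and how many mice a library came from is not given in the sources used here. Each genotype was either left untreated or treated for 1 h with KLA (Kdo2-Lipid A, 100 ng/ml), an endotoxin core that activates TLR4. A further list holds sites of biotin-tagged LXRβ in the mouse macrophage line RAW264.7 treated with the LXR ligand GW3965 (1 µM, 2 h). With 1 library in every group there is no replicate to set a difference against, so groups are described without tests. Poisson intervals cover the counting of tags only. Order-statistic and Clopper-Pearson intervals are formed over sites taken as independent. None of them covers variation between libraries. The lists hold binding sites and not expression, so neither the loss of NCoR nor macrophage marker genes could be checked in them.

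Peak heights are the authors' normalized tag counts, which in the p65 lists are tags per 10000000 tags of the library. LXRβ heights do not match that scale with the tag total of their own list, so they are compared only within it. The untreated libraries had 777228 (wild type) and 786121 tags (knockout), and the KLA libraries 2120392 and 1673506. A single tag was worth a height of 12.9 and 12.7 in the untreated libraries and 4.72 and 5.98 in the KLA libraries. Peak width was 103 bp in the untreated wild type list, 126 bp in the untreated knockout list, and 132 and 144 bp in the KLA lists, so the same binding can give a greater height in a wider list. Positions are on mouse build mm9. Sites are given by position, without gene names or sequence, since no genome of this build was used here.

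In resting wild type cells the 327 sites were low. Their untreated height ranged from 64.3 to 257.3 with a median of 64.3, which is the lowest height in the list and stands for 5 tags. A total of 175 sites (53.5%) rested on 5 tags and 73 (22.3%) on 6, while 60 had 7 to 9 tags and 19 had 10 or more. A height from 5 tags has a 95% Poisson interval of 20.9 to 150. The untreated knockout list starts at 63.6, and the lower bound of the interval lay above that height at 13 of the 327 sites (3.98%). Sites listed untreated in both genotypes were taller, with a median of 90.1, and 62 of those 246 had a lower bound above 63.6. This contrast rests on the untreated lists that the rule used, so it describes the choice of sites. Over the whole untreated wild type list 59.5% of peaks lacked a knockout peak and 81.6% had a peak in either KLA list, and these values define the group rather than describe a result. The plot of tags at untreated peaks shows how close the group lies to the calling threshold.

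**Figure D1:**
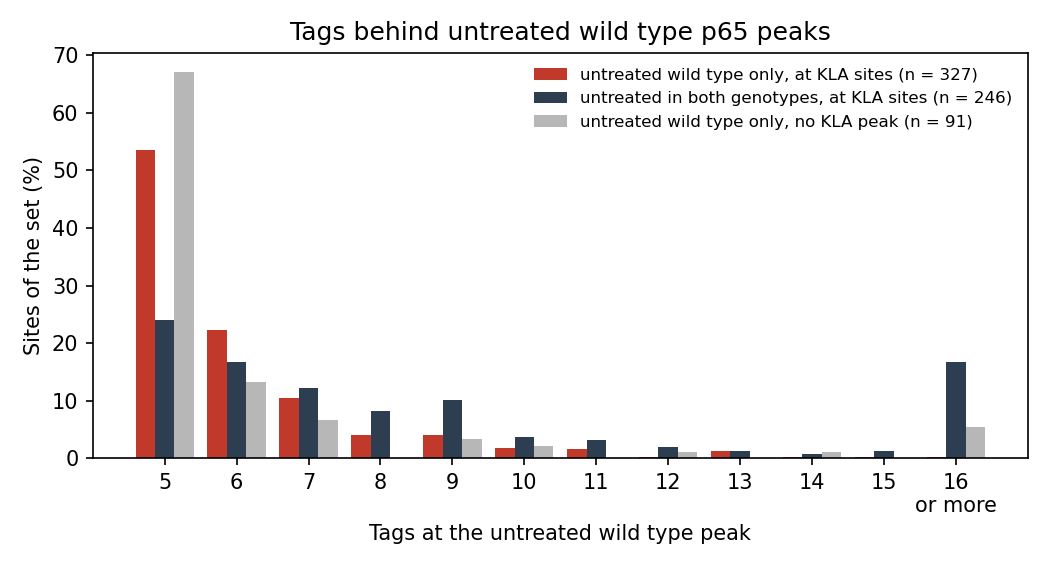
Share of sites (y axis, %) by the number of tags at the untreated wild type peak (x axis) for 3 sets of untreated wild type peaks. The wild-type-only sites at KLA sites (red) are concentrated at 5 tags (53.5%) and 6 tags (22.3%), sites listed in both genotypes (dark) reach further to the right, and the 91 wild-type-only peaks with no KLA peak (grey) are also highest at 5 tags.

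The tallest of the sites in resting wild type cells was at chr16:10975191-10975293, with a height of 257.3 (95% Poisson interval 157 to 397). Its height was 56.6 in wild type cells after KLA, with no knockout peak in either condition. This site also had the most scaled input tags of the group, 2.5, against a median of 0.1, and the part of input signal in its height was not tested. The next site, chr2:174167329-174167431, had 193.0 untreated and 28.3 (wild type) and 53.8 (knockout) after KLA. Next came chr2:174155795-174155897, which had 180.1 untreated and 33.0 and 41.8 after KLA. At these 3 sites the wild type height was lower after KLA than before, and input was 0.0 and 0.1 at the chromosome 2 sites.

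Other tall sites included some with greater heights after KLA. At chr2:28395590-28395692 the height was 167.3 untreated, 344.3 in wild type KLA cells and 346.6 in knockout KLA cells. At chr2:167200738-167200840 it was 167.3 untreated, then 330.1 and 251.0. At chr12:118719697-118719799 it was 167.3 untreated, then 283.0 and 233.0. The nearest untreated knockout peak to any of these 3 sites was centred 6666 bp away. After KLA their knockout to wild type ratios were 1.01, 0.760 and 0.823. The last places among the 10 tallest were a tie of 5 sites at 141.5 (11 tags), which did not move one way. After KLA the wild type and knockout heights were 221.7 and 203.2 at chr11:116482759-116482861, 188.6 and 173.3 at chr7:80682653-80682755, 141.5 and 173.3 at chr4:98830406-98830508, and 113.2 and 89.6 at chr7:104503822-104503924. The fifth of the tie, chr5:150059504-150059606, had no wild type KLA peak and a knockout KLA height of 35.9. The other tall sites, at chr9:3004767-3004869 (167.3) and chr9:3018314-3018416 (154.4), had 1.9 and 1.0 scaled input tags and lay in a stretch where both genotypes had many peaks. Another site among the 3 highest in input, chr11:3074332-3074434 with 1.6 scaled tags, had 128.7 untreated, 56.6 in wild type KLA cells and no knockout KLA peak.

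Absence from the knockout list did not always mean an empty region. At 13 sites (3.98%) an untreated knockout peak was centred within 500 bp, 121 to 435 bp away, with heights of 63.6 to 394.3, and at 6 of them that knockout peak was the taller. The tallest such neighbour, 394.3, was centred 238 bp from chr5:150059504-150059606, where the wild type height was 141.5. The sites nearest to the limit of the rule were chr8:74846523-74846625, 7 bp short of a knockout peak of 76.3, chr10:66461595-66461697, 14 bp short of one of 63.6, and chr11:79092202-79092304, 15 bp short of one of 76.3. Just on the other side, wild type peaks at chr17:46090543-46090645, chr7:108099049-108099151 and chr11:117853130-117853232 overlapped knockout peaks by 4, 5 and 7 bp and so were not counted. An untreated knockout peak was centred within 10 kb of 35 of the 327 sites and within 100 kb of 146, counts that the rule itself lowers. The caller's filters removed 163 putative untreated knockout peaks by input and 18 by local signal over the whole list. Whether any of these lay at the 327 sites was not tested. The input was wild type chromatin for both genotypes.

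After KLA most of the sites were bound in both genotypes. A wild type KLA peak was present at 309 sites (94.5%, 95% Clopper-Pearson interval 91.4 to 96.7). A knockout KLA peak was present at 276 (84.4%, 80.0 to 88.2). The rule asked for 1 of the 2, which raised these shares by construction. The shares over all untreated wild type peaks, 75.8% and 70.7%, include peaks with no KLA peak, so they are no like comparison. Sites untreated in both genotypes, with the same KLA condition, had 90.7% (86.3 to 94.0) and 89.4% (84.9 to 93.0). Knockout-only untreated sites at KLA sites had 87.3% and 74.7%. Both KLA lists had a peak at 258 sites (78.9%, 74.1 to 83.2), the wild type list alone at 51 (15.6%) and the knockout list alone at 18 (5.50%). Of sites untreated in both genotypes, 197 of 246 (80.1%, 74.5 to 84.9) were in both KLA lists, and of knockout-only untreated sites at KLA sites, 582 of 939 (62.0%, 58.8 to 65.1).

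The sites found in only 1 KLA list were mostly low. The 51 with wild type KLA alone had a median wild type KLA height of 42.4, and the 18 with knockout KLA alone a median knockout height of 50.8, against medians of 141.5 (wild type) and 119.5 (knockout) at the 258 sites with both. The tallest of them had a peak of the other genotype close by, at positions picked after their values were seen. At chr12:112680074-112680176 the wild type KLA height was 330.1 and a knockout KLA peak of 310.7 was centred 143 bp away. At chr2:153024198-153024300 the knockout KLA height was 394.4 and a wild type KLA peak of 476.3 was centred 170 bp away. A peak of the other genotype was centred within 500 bp at 12 of the 51 and 9 of the 18 sites. These lists were called differently, wild type KLA from a height of 18.9 with no input and knockout KLA from 29.9 with one. By wild type KLA height, a knockout KLA peak was present at 39.1% of the sites under 30, 56.7% at 30 to under 60, 95.6% at 60 to under 120, 99.0% at 120 to under 240 and all 46 at 240 or more. Over all wild type KLA peaks the share was 54%, and by the same classes 23.8%, 52.0%, 85.2%, 97.1% and 99.4%. Sites missing from the knockout KLA list were thus mostly low in the wild type list, as among all p65 peaks.

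KLA heights at the sites were above those of most p65 peaks. The wild type KLA height had a median of 113.2 (95% order-statistic interval 99.0 to 136.8) with quartiles of 51.9 and 188.6, against a median of 42.4 over all 30021 wild type KLA peaks. The knockout KLA height had a median of 119.5 (107.6 to 131.5), against 53.8 over 22585 peaks. By rank, 154 of 309 (49.8%) stood in the top 10% of the wild type KLA list and 124 of 276 (44.9%) in the top 10% of the knockout KLA list, while 45 and 39 lay below the list's median. Sites untreated in both genotypes had KLA medians of 117.9 and 113.5. Knockout-only untreated sites at KLA sites had lower ones, 56.6 in wild type and 65.7 in knockout cells. Those sites come from a longer untreated list, 2227 peaks against 702. How far list length bears on their KLA medians was not tested. Untreated and KLA heights did not rank the sites alike throughout. The median wild type KLA height was 84.9 for sites with 5 untreated tags, 117.9 for 6 tags and 174.5 for 7 to 9 tags, and 155.7 for 10 tags or more, a class of 19 sites that holds those named above with 141.5 or more.

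**Figure D2:**
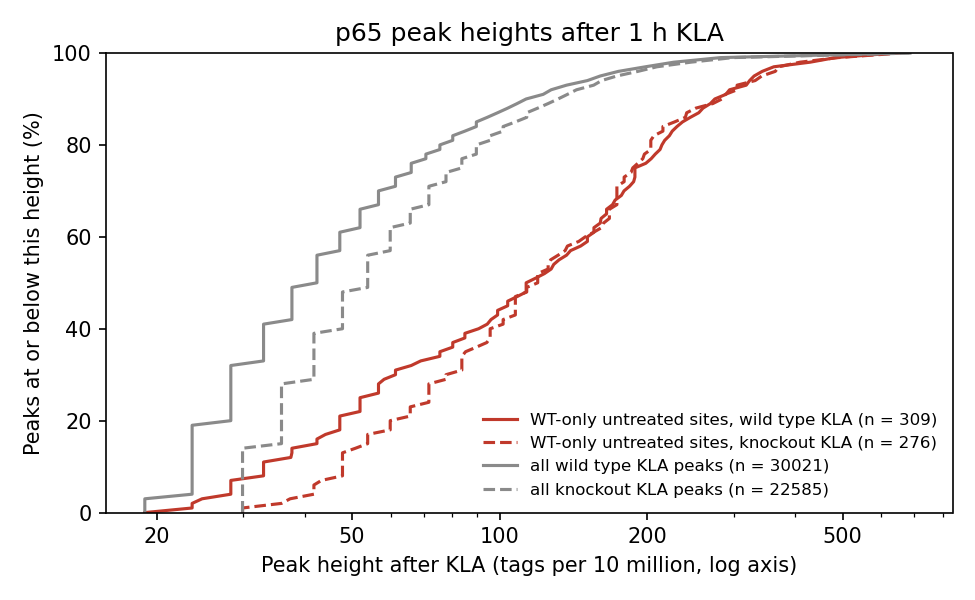
Cumulative share of peaks (y axis, %) by height after KLA (x axis, tags per 10000000, log scale) for the wild-type-only untreated sites (red) and for all peaks of each KLA list (grey), with solid lines for wild type and dashed lines for knockout. The red curves lie to the right of the grey ones, with medians of 113.2 and 119.5 against 42.4 and 53.8.

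The strongest KLA binding of the group was at chr17:13203098-13203200. It had 115.8 untreated in wild type cells (9 tags), 641.4 (538 to 759) in wild type KLA cells and 657.3 (540 to 792) in KLA-treated knockout cells. At chr13:20879021-20879123 the values were 90.1, 636.7 and 543.8, and at chr10:37058130-37058232 they were 64.3, 556.5 and 579.6. The untreated knockout list had a peak of 63.6 centred 369 bp from the chromosome 10 site. At chr14:55061534-55061636 the height was 64.3 untreated, 485.8 in wild type KLA cells and 460.1 in knockout KLA cells, and at chr12:87046633-87046735 it was 64.3, then 457.5 and 304.7. A site on chromosome 18 had 90.1 untreated, then 429.2 and 472.1, the fourth tallest of the group in knockout KLA cells. These 6 sites had at most 9 tags before the stimulus, so the tallest KLA sites of the group were not its tallest untreated sites. The Poisson intervals of the KLA heights of both genotypes overlapped at each of these 6 sites.

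Set beside its own untreated height, the wild type KLA height was greater at most sites. The median ratio of KLA to untreated height was 1.53 (1.32 to 1.70) per total tags and 1.19 per bp of peak, but 0.0723 when heights were scaled to the tags in peaks, of which the KLA library had far more. The KLA height was 2 times the untreated height or more at 110 of 309 sites (35.6%), against 32.1% of all untreated wild type peaks with a wild type KLA peak. It was 0.5 times or less at 36 (11.7%), against 21.4% over the list, and at 101 sites it was below the untreated height. That list includes the sites themselves. At sites untreated in both genotypes the shares were 27.4% (61 of 223) and 35.0% (78 of 223). Those sites were taller untreated (median 90.1 against 64.3), and the untreated height is the divisor of this ratio. Because a listed untreated site needs a height of at least 64.3, a low site enters only when its tags run high, and this ratio cannot be read as the response of weaker sites. In knockout cells the sites have no untreated height, so no such ratio was formed.

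The genotypes were compared after KLA at the 258 sites with a peak in both lists. The rule did not use the ratio of KLA heights, but it asked for a peak in either KLA list. The 258 sites also had to pass the thresholds of both lists. The knockout to wild type height ratio had a median of 0.943 (0.898 to 0.995) with quartiles of 0.775 and 1.19, and 148 of 258 sites (57.4%) were lower in knockout cells. Over all 16203 KLA sites listed in both genotypes the median was 1.09 (1.07 to 1.09) and 42.0% were lower in knockout cells. It was 1.09 (1.01 to 1.16) at sites untreated in both genotypes and 1.06 (1.02 to 1.10) at knockout-only untreated sites at KLA sites. The KLA lists start at 18.9 (wild type) and 29.9 (knockout), so a shared site below 29.9 in wild type cells has a ratio above 1. Over all sites the median was 1.52 under a wild type KLA height of 30. It was 0.950, 0.899 and 0.921 at 60 to under 120, 120 to under 240 and 240 or more. The wild-type-only sites were taller than all KLA sites, so 0.943 and 1.09 are not values at like height. Knockout peaks were wider, and per bp the medians were 0.864 for the wild-type-only sites, 0.996 for all sites, 1.00 for sites untreated in both genotypes and 0.968 for knockout-only untreated sites. Whether these medians differ beyond what another pair of libraries would give could not be tested with 1 library per group. The intervals take sites as independent.

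**Figure D3:**
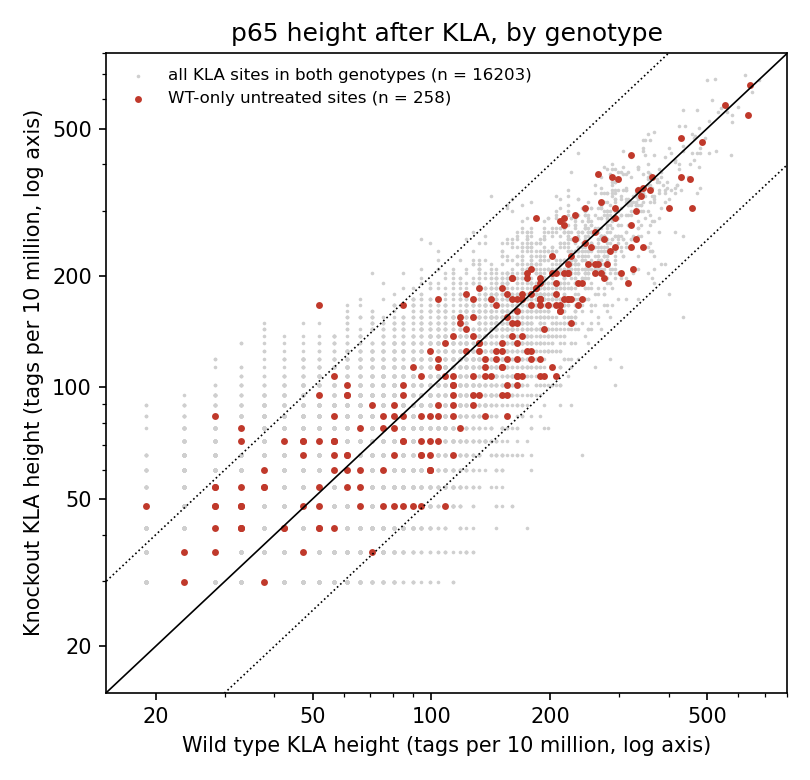
Knockout against wild type height after KLA (both axes in tags per 10000000, log scales) for 258 wild-type-only untreated sites (red) and all 16203 KLA sites in both lists (grey), with lines at equal height (solid) and at 2 times and 0.5 times (dotted). The red points lie close to the solid line, with 5 at or above the upper dotted line and 1 below the lower one.

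Few of the sites differed by 2-fold between the genotypes after KLA. The knockout height was 2 times the wild type height or more at 5 of 258 (1.94%), against 6.28% of all KLA sites in both lists, and 0.5 times or less at 1 (0.388%), against 2.43%. These shares depend on height, and the sites were taller than the KLA sites at large. Under a geometric mean KLA height of 60 the share at 2 times or more was 9.76% (4 of 41) against 8.97% of all sites, at 60 to under 120 it was 1.41% (1 of 71) against 4.80%, and at 120 to under 240 it was 0 of 104, which allows a share of up to 2.88%, against 0.820%. All 6 had 5 untreated tags. The highest ratio, 3.22, was at chr6:124848509-124848611, where KLA heights were 51.9 (wild type) and 167.3 (knockout). The others at 2 or more were at chrX:48372007-48372109 (28.3 and 83.7), chr3:105619179-105619281 (18.9 and 47.8), chr2:168364707-168364809 (33.0 and 77.7) and on chromosome 18 (33.0 and 71.7). The lowest, 0.441, was at chr1:33957113-33957215 with 108.5 and 47.8. The 5 with a high ratio rested on 4 to 11 tags in the wild type KLA list. The Poisson intervals of the genotypes did not overlap at the chromosome 6 site (25.9 to 92.8 for wild type, 111 to 242 for knockout) and overlapped at the other 5.

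Among sites with 20 tags or more in both KLA lists, ratios stayed closer to 1. The highest were 1.67 at chr7:26561887-26561989 (wild type 103.8, knockout 173.3), 1.56 at chr9:20819734-20819836 (183.9 and 286.8) and 1.46 at chr16:91547130-91547232 (122.6 and 179.3). The lowest were 0.605 at chr1:39635475-39635577 (316.0 and 191.2), 0.634 at chr9:63554301-63554403 (188.6 and 119.5) and 0.643 at chr8:87500481-87500583 (325.4 and 209.1). At the first of the low sites the Poisson intervals, 245 to 401 for wild type and 131 to 270 for knockout, overlapped, as they did at the other 5.

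The ratio varied with height, so it is given by the geometric mean of both KLA heights. At a mean of 60 to under 120 the median was 0.898 (0.819 to 1.07) at 71 of the sites, against 1.03 (1.01 to 1.04) over all sites. At 120 to under 240 it was 0.880 (0.817 to 0.934) at 104, against 0.975 (0.958 to 0.986). At 240 or more it was 0.974 (0.863 to 1.02) at 42, against 0.985 (0.962 to 1.01), and under 60 it was 1.39 (1.04 to 1.52) at 41, against 1.15 (1.14 to 1.27). The unequal lowest heights of the KLA lists, 18.9 and 29.9, bear on the class under 60. The group is part of all sites and each genotype is 1 library, so the intervals are set side by side as a description. With these classes, the interval of the group lay below that of all sites only at means of 120 to under 240. Classes by wild type KLA height gave another order there, with a median of 0.911 for the group and 0.899 for all sites at 120 to under 240, while at 60 to under 120 they gave 0.888 and 0.950 and at 240 or more 0.884 and 0.921. The lower ratio at 120 to under 240 thus depends on how sites are classed. At geometric means of 120 to under 240, sites untreated in both genotypes had 0.924 (0.845 to 1.01) and knockout-only untreated sites 0.958 (0.905 to 1.02), whose intervals overlap that of the group.

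**Figure D4:**
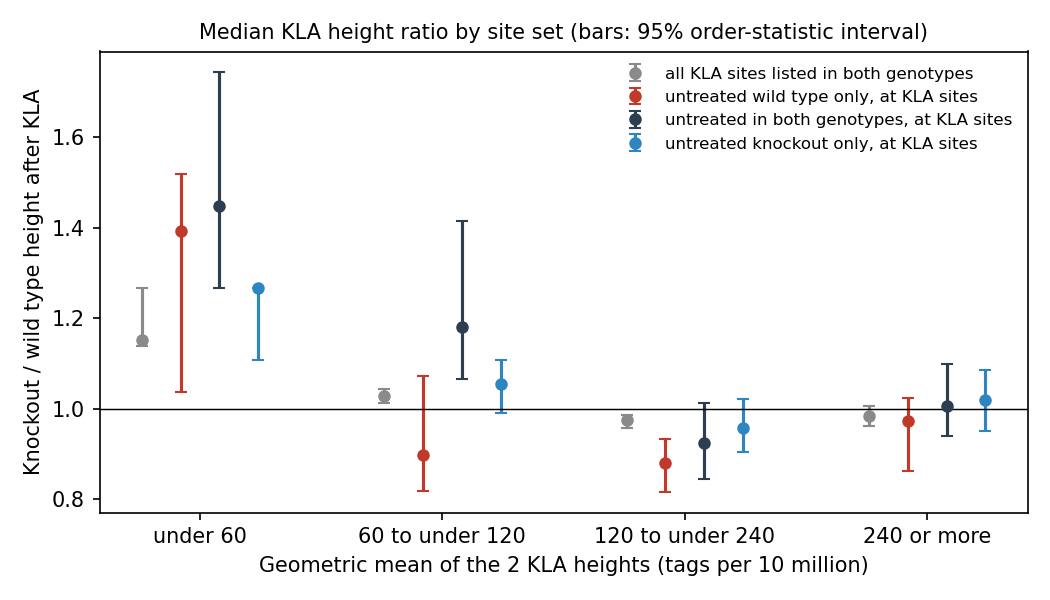
Median knockout to wild type height ratio after KLA (y axis) by the geometric mean of both KLA heights (x axis, tags per 10000000) for 4 sets of sites, with 95% order-statistic intervals. Wild-type-only untreated sites (red) have medians of 0.898 and 0.880 in the middle bins and 0.974 at 240 or more.

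Seen from the KLA list, taller p65 sites were more often already listed before the stimulus. Of 9676 wild type KLA peaks under a height of 30, 0.238% were listed untreated in wild type cells only. The share was 1.11% at 60 to under 120, 4.62% at 120 to under 240 and 8.54% at 240 or more. In the tallest class 45 of 527 peaks were listed untreated in wild type only, 41 in knockout only and 58 in both genotypes. At 120 to under 240 the numbers were 103, 112 and 53. Among low KLA peaks knockout-only listing prevailed, with 23 in wild type only against 120 in knockout only under 30, 67 against 308 at 30 to under 60, and 69 against 237 at 60 to under 120. Below 120 in all, 665 KLA peaks were listed untreated in knockout only and 159 in wild type only, and at 120 or more 153 and 148. At KLA sites of any height, 939 untreated peaks were in the knockout list only and 327 in the wild type list only. The rule used these same lists, so the counts by class are a description with no test. These counts come from untreated lists of unlike length, 2227 peaks in knockout and 702 in wild type cells. The share of tags in peaks was 2.37% and 0.83%, and the knockout peaks were wider. How far list length shapes the counts in each class was not tested. Untreated peaks away from KLA sites are not in these numbers, and there 1004 were in knockout only and 91 in wild type only. With classes by knockout KLA height the numbers were 557 against 146 under 120 and 144 against 129 at 120 or more. With 7 tags or more required in both untreated lists they were 207 against 28 and 63 against 74.

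**Figure D5:**
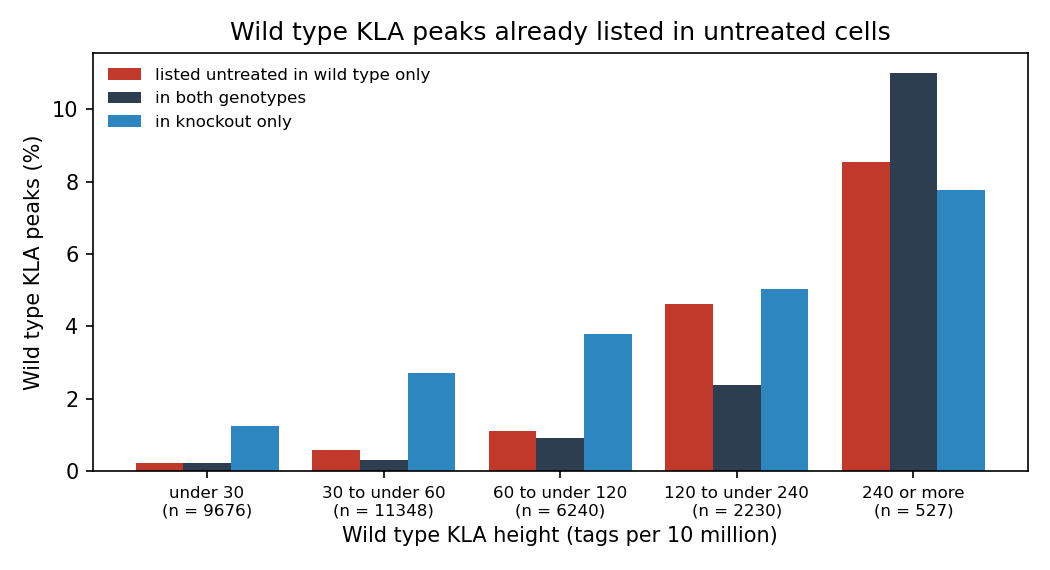
Share of wild type KLA peaks (y axis, %) that were listed in untreated cells of the wild type only (red), both genotypes (dark) or the knockout only (blue), by wild type KLA height (x axis, tags per 10000000). The red and blue bars are close at 240 or more (8.54% and 7.78%), and the blue bars are higher under 120. The bars rest on the lists that the rule used.

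LXRβ, whose target genes NCoR represses, was mapped in other cells, so an overlap means a shared position only. An LXRβ peak overlapped 43 of the 327 sites (13.1%, 9.68 to 17.3), against 14% of all untreated wild type p65 peaks and 3.87% of all wild type KLA peaks. The share was 18.7% (14.0 to 24.1) at sites untreated in both genotypes and 11.8% (9.83 to 14.1) at knockout-only untreated sites at KLA sites. By wild type KLA height, the share for the sites was 16.2% (8.36 to 27.1) at 60 to under 120, against 5.77% of all wild type KLA peaks, and 16.2% (9.72 to 24.7) at 120 to under 240, against 6.73%. At 240 or more it was 17.4% (7.82 to 31.4) against 11.6%, at 30 to under 60 it was 8.96% (3.36 to 18.5) against 3.56%, and under 30 it was 4.35% (0.110 to 21.9) against 1.93%. The Clopper-Pearson intervals of the sites lay above the share of all peaks at 60 to under 120 and at 120 to under 240, and covered it at 240 or more, under 30 and at 30 to under 60. The sites lie at peaks counted in that share, and no test was made. LXRβ heights at the 43 sites ranged from 8.2 to 41.0 with a median of 10.9, the median of the whole LXRβ list.

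The tallest LXRβ peak among them, 41.0, was at chr2:116815944-116816046, where p65 had 64.3 untreated, 169.8 (wild type) and 173.3 (knockout) after KLA. The second, 25.5, was at chr8:86262144-86262246, with p65 at 64.3 untreated and 51.9 in wild type KLA cells and no knockout KLA peak. LXRβ peaks of 20 lay at chr2:167200738-167200840, one of the tallest untreated sites, and at chr11:105928049-105928151, where p65 had 102.9 untreated, 23.6 in wild type KLA cells and 1.2 scaled input tags. An LXRβ peak of 19.1 lay at chr8:74846523-74846625, with p65 at 64.3 untreated, then 212.2 and 280.8.

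The sites were spread over all autosomes and the X chromosome, from 32 on chromosome 2 and 26 on chromosome 11 to 4 on X. Only 14 had another of the sites centred within 10 kb, and 57 within 100 kb. Of 100 kb windows, 2 held 3 of the sites and 14 held 2. The window from 174100001 of chromosome 2 had 6 untreated wild type and 0 untreated knockout peaks, and 4 and 3 KLA peaks (wild type and knockout). Its other site, chr2:174170962-174171064, had 115.8 untreated, no wild type KLA peak and 83.7 in knockout KLA cells. Each of the 3 sites there was thus higher in resting than in KLA-treated wild type cells or, of the 2 KLA lists, was missing from the wild type list only. The other window, from 3000001 of chromosome 9, had 22 and 18 untreated peaks, and its 3 sites had 1.0 to 1.9 scaled input tags.

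Peak offset, input and shape were also compared between the sets. The centre of the untreated peak lay a median of 28 bp from the wild type KLA centre and 29 bp from the knockout KLA centre, against 17 and 15.5 bp at sites untreated in both genotypes. At knockout-only untreated sites at KLA sites the medians were 34 and 31 bp. Scaled input tags reached 1 or more at 8 of 327 (2.45%), against 28 of 246 (11.4%) for sites in both genotypes and 7 of 91 (7.69%) for wild-type-only untreated peaks with no KLA peak. For knockout-only untreated sites at KLA sites it was 4 of 939 (0.426%). The fold over local signal, the authors' ratio, had a median of 72.1, against 81.2, 68.6 and 58.8 in those sets, in the same order. The focus ratio, the authors' measure of how sharply tags flank a peak's centre, had a median of 0.833 in the group and in each of those sets. Within 10 kb of the sites there was a median of 2 wild type KLA peaks, as there was around all wild type KLA peaks, which count themselves.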

How the data were processed

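The submitters' processing notes name Bowtie 0.12.7, HOMER and the mm9 build. Each list came from HOMER's findPeaks for transcription factors at a false discovery rate of 0.001, per the file headers, and had to reach 5 tags (p65) and 4-fold over the local 10000 bp, and, except for wild type KLA, 4-fold over input, which was wild type chromatin for all other p65 lists. Peaks of 4 tags occur in the wild type KLA list. The normalized tag count and the scaled input tags are signal values made by the authors. The deposited count of total tags and the authors' findPeaks score were used to check heights, and the score differed from the tags at 13561 wild type KLA peaks. The focus ratio is a deposited fraction and the fold over local signal a deposited ratio. These describe peaks within a list.

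Overlaps of 1 bp or more, with the nearest centre where several peaks matched, were computed with pandas 2.3.3, scipy 1.17.1 and numpy 2.4.6 under Python 3.11.15. The code was tested on simulated lists, where it found 342 of 342 planted sites, and gave the same 327 sites as bedtools 2.31.1. Tags of a peak are its height divided by that of 1 tag. PCR tags are not independent molecules. The sites and the sets beside them were chosen with earlier results of these data known. Sites named are the 10 tallest untreated (13 with a tie), the 5 tallest in each KLA list, the 3 highest and lowest ratios at 20 tags or more, the 3 highest in input, the 5 tallest in LXRβ, the fullest windows and the 3 nearest to each side of the rule, and others are said to be picked after their values were seen. The 6 sites past 2-fold, the chromosome 5 site with the tallest knockout neighbour and the other sites of the fullest windows were also named after values were seen. Of the 23 samples, the other 18 were not analysed here.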

Additional observations from a re-analysis of the deposited data

How the results depend on the processing

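Of 103 values recomputed under alternatives, 81 stayed within 1.5 times (counts) or within the interval (shares and medians). The 22 others follow. With centres at most 500 bp apart as the match, 83.7% of sites had a peak in both KLA lists, 97.3% in the wild type KLA list, and by construction 0 had a knockout peak within 500 bp. With all peaks 200 bp wide that last share was 2.12%. With 7 untreated tags or more, 79 sites remained, of which 86.1% were in both KLA lists and 91.1% in the knockout KLA list, the KLA to untreated ratio was 1.73, the knockout to wild type ratio 0.860, and 0 sites were at 2 or more and 0 at 0.5 or less. From an equal lowest KLA height, 91.1% were in the wild type KLA list and 3 sites were at 2 or more. Per bp of peak the ratios were 1.19 and 0.864, with 6 sites at 0.5 or less, and from the score 3 sites were. Scaled to tags in peaks, the KLA to untreated ratio was 0.0723. With 7 tags or more in both untreated lists, an alternative chosen after seeing the data, 74 (wild type only) and 63 (knockout only) KLA peaks of 120 or more, and 28 and 207 under 120, were listed untreated. The cause of these shifts was not tested. Every one of the 11 alternatives for the median ratio of knockout to wild type KLA height lay below 1, from 0.860 to 0.950. They reuse the same KLA libraries and overlapping sets of sites, so their agreement is not replication. Over all KLA sites in both lists the median was also below 1 per bp (0.996). By geometric mean it was 0.975 at 120 to under 240 and 0.985 at 240 or more, and above 1 in the lower classes. No paired analysis was possible because each group is 1 library without a replicate number, and no library could be left out. At 5 tags a site, one missing from a list may be bound below the threshold.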
